A study of Mus musculus with 6 samples.

Results

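The 9 cell-surface genes of the butyrophilin-like and costimulatory ligand group were examined in mouse alveolar macrophages, phagocytes that live in the air spaces of the lung. They were chosen by symbol, and all 9 were among the 25664 genes of the count table: Btnl4, Btnl6, Btn2a2, Cd80, Cd86, Cd274, Pdcd1lg2, Icosl and Cd40. The choice was made with the differences between the genotypes in view, so the members' own differences are given as description: no p is printed for a member, and whether the test over all genes called it is stated without being read as support. 3 libraries, called Pex5-deficient, came from Vav1cre/+ Pex5fl/fl mice, and 3, called control, came from Pex5fl/fl mice without the recombinase. Both groups thus carry the floxed Pex5 alleles and differ in the Vav1-driven Cre, which acts in blood-forming cells and all their progeny and not in macrophages alone. Each library was made from 50000 macrophages sorted from lavage fluid. The sources used here give neither sex, age and strain background nor whether each library stands for its own mouse, so the spread between libraries may in part be technical.

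T cells need a signal from antigen and a signal from ligands on the presenting cell. The B7 family supplies much of the ligand signal. CD80 and CD86 bind the activating receptor CD28 and the inhibitory receptor CTLA-4. PD-L1 (Cd274) and PD-L2 (Pdcd1lg2) bind the inhibitory receptor PD-1, and ICOSL binds ICOS. CD40 belongs to the TNF receptor family, and through it T cells with CD40 ligand activate the presenting cell. Butyrophilins and butyrophilin-like proteins are related to the B7 family. In the mouse gut, Btnl6 and Btnl4 are known from epithelial cells, where they pair with Btnl1 and are recognised by intraepithelial gamma-delta T cells, and Btn2a2 restrains T cells in mice. Alveolar macrophages are known as weak stimulators of T cells.

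Among the 9 genes, the pair Btnl4 and Btnl6 differed most between the genotypes, and these neighbours also resembled each other in sequence. Both lie on the minus strand of chromosome 17 in GRCm38, Btnl4 at chr17:34466562-34477318 and Btnl6 at chr17:34507804-34517352, with annotated starts 40.0 kb apart. The 300-base windows around their RefSeq starts (250 bases before and 50 after, build GRCm38.p6), chr17:34475888-34476187 for Btnl4 and chr17:34517303-34517602 for Btnl6, are shown because they were nearly the same sequence. Capitals mark the bases that differ between the windows or have no partner, read 5′ to 3′ on the genes' strand.
Btnl4: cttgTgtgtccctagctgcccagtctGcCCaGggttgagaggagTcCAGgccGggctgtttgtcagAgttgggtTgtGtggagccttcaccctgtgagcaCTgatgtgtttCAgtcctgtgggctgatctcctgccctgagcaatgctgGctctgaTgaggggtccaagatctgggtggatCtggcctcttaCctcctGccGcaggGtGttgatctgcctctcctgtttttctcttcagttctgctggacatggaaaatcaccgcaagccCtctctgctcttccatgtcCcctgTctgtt
Btnl6: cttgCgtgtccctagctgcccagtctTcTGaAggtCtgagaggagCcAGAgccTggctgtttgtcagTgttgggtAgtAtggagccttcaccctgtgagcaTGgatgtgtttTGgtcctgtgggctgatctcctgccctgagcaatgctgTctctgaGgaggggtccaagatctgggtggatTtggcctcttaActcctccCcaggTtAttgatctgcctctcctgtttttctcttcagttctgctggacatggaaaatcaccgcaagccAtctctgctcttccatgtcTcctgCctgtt
In a global alignment 272 of 301 columns were identical (90.4%), with an unbroken identical run of 61 bases. The other 20 pairs among the 7 members with a RefSeq window had 40.2% to 48.8% identity. Of the 289 12-base words of the Btnl4 window 118 also stood in that of Btnl6, and the next closest of the 32851 windows of all genes, that of Scgb2b27, held 5. Likewise 118 of the 289 words of the Btnl6 window stood in that of Btnl4, and 9 in the next closest, that of Shisa4. The annotations differ on where Btnl4 begins: GENCODE places the start of the gene 1381 bases farther upstream than RefSeq, so that all 300 bases of its window lie inside the GENCODE gene and 50 of them in an exon. For Btnl6 the starts coincide, and the 50 bases after the start are exonic. The transcripts compared, of 1761 bases for Btnl4 and 1620 for Btnl6, were 82.9% identical, against at most 46.8% for any other pair of members. For Btnl6 this was not the longest annotated transcript, which has 1751 bases, while the other members entered with their longest. A read of 100 bases could still be told apart: 1.44% of the 100-base words of Btnl4 and 0.0605% of those of Btnl6 occurred in another gene, in the pseudogenes Btnl7-ps and Btnl5-ps and not in each other. Letters of known binding motifs were searched on both strands. Neither window held GGGNN followed by TTTCC (NF-kB), the looser GGG and CC with any 5 bases between them, GAAANN followed by GAAA (interferon response), TTCNNNGAA (GAS), TGANTCA (AP-1), GAGGAA (ETS) or TATAAA. These occur in 1.63%, 50.8%, 3.44%, 8.3%, 7.81%, 28.3% and 13.6% of the windows of all genes, in that order. Among the other 5 members with a window, the looser NF-kB letters stood in those of Btn2a2, Cd80, Pdcd1lg2 and Icosl, AP-1 and TATAAA in that of Cd80, and GAGGAA in that of Pdcd1lg2.

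The libraries held 13325609 to 19413838 counts in the Pex5-deficient group and 14226108 to 18987200 in the control group. Pex5-deficient replicate 2 stood apart: the 50 most abundant genes took 30.4% of its counts, against 41.3% and 41.8% in the other Pex5-deficient libraries and 38.3% to 42.1% in control. Its scaling factor was 1.34. Levels are a gene's counts per 1000000 counts of the library (CPM), on library sizes scaled by trimmed mean of M values (TMM) factors, and single libraries are given in the order of replicates 1 to 3. Pex5 itself had 31.4, 36.3 and 29.6 CPM in Pex5-deficient libraries, against 33.0, 32.1 and 29.7 CPM in control libraries. The log2 fold change was 0.04 ± 0.11 (SE, adjusted p = 0.891 by edgeR). Counts per gene do not separate floxed exons from others, so these values do not check the genotype labels. Loss of the floxed exons was not tested. All 13 alveolar macrophage markers passed the filter on low counts. Their summed level was 36000 to 81600 CPM in Pex5-deficient and 51300 to 78500 CPM in control libraries. Chil3 alone had 26000 to 63100 and 35000 to 54000 CPM, so the sum says little about the others. Of the 13 markers 10 had a negative and 3 a positive log2 fold change, with a median of -0.43. By edgeR 1 of them was higher (Fabp4) and 3 were lower (Siglecf, Krt79 and Ear1). Siglecf kept its call whichever library was left out, while leaving out 1 library ended that of Fabp4 in 4 cases (adjusted p = 0.0963 to 0.185), Krt79 in 4 (0.0548 to 0.1) and Ear1 in 3 (0.0911 to 0.135). The 12 dendritic cell markers summed to 0.791 to 1.41 CPM in Pex5-deficient and 0.810 to 0.916 CPM in control libraries, with Dpp4, Cd209a and Siglech listed at 0 throughout. Of the 9 B cell markers 6 were listed at 0, Cd79a and Pax5 among them, and each of the others except Cd22 was at most 0.286 CPM. Cd22 alone had 106, 100.0 and 121 CPM in Pex5-deficient libraries, against 117, 119 and 123 CPM in control libraries. The 9 T cell markers summed to 0.588 to 2.35 CPM and 0.0782 to 1.03 CPM. The 10 markers of monocytes and interstitial macrophages summed to 14.2 to 19.6 CPM in Pex5-deficient and 7.27 to 14.4 CPM in control libraries, with C1qc at 0. The 9 neutrophil markers summed to 125 to 188 CPM and 84.3 to 98.6 CPM, with S100a8 and Cxcr2 called higher and S100a9, Retnlg, Ly6g, Camp and Ngp at 0. The other 2 were not called by edgeR and went opposite ways. Mmp8 had a log2 fold change of 0.90 ± 0.31 (SE, adjusted p = 0.156) and Csf3r of -0.52 ± 0.24 (0.279). The call of S100a8 ended when any library but Pex5-deficient replicate 2 or 3 was left out (adjusted p = 0.0545 to 0.0817) and by limma-voom (0.0513), and that of Cxcr2 was kept whichever library was left out. The 10 epithelial markers summed to 0.904 to 2.03 CPM and 2.4 to 3.44 CPM. The part of such cells in the values below was not tested. In sorted bulk RNA, a different number of cells that carry a transcript and a different amount of it per cell cannot be told apart.

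7 of the 9 members passed the filter, which asks for about 0.622 CPM in at least 3 libraries, and 2, Btn2a2 and Cd40, did not. Btnl4 passed through its 3 Pex5-deficient libraries alone and Btnl6 through these and 1 control library. Neither could pass on its control libraries. A difference was thus built into the presence of Btnl4, and in part of Btnl6, among the genes tested. By edgeR's quasi-likelihood test with an adjusted p under 0.05, 2 members were called, both higher, against 3.25% of the 11011 genes tested (1.74% higher and 1.51% lower). Scaling by library size alone shifted all genes by a median of 0.17 on the log2 scale, and the split of calls over all genes was then 289 higher and 132 lower in place of 192 and 166. The libraries of the groups did not overlap for 4 members, Btnl4, Btnl6 and Cd274 higher and Icosl lower, against 26.1% of all genes tested. Since the members were proposed from this contrast, nothing is read from these counts.

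**Figure D1:**
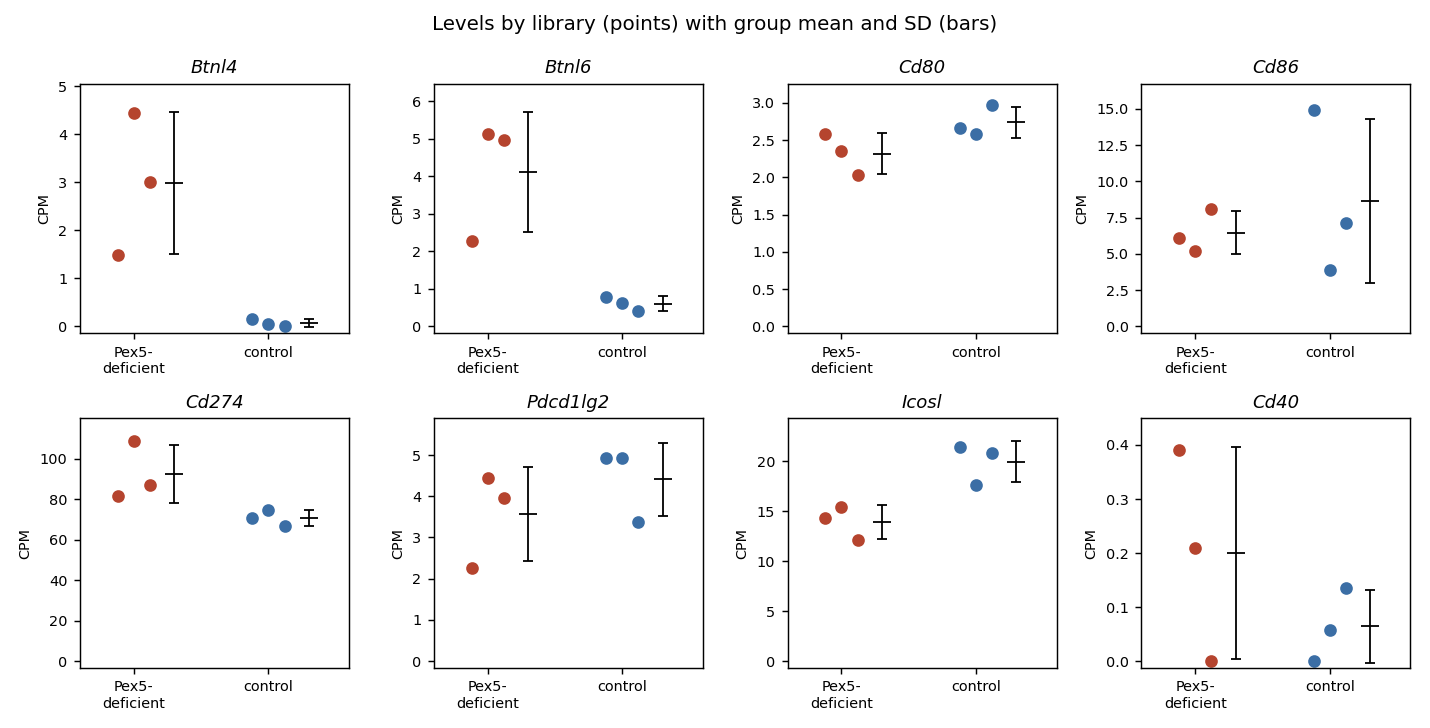
CPM of 8 members in each library (points, replicates 1 to 3 from left to right), Pex5-deficient in red and control in blue, with the mean and SD of each group as bars (n = 3 each). Btn2a2, at 0 in all 6 libraries, is not drawn. Btnl4 and Btnl6 stand near the floor in control libraries, and the groups overlap for Cd80, Cd86, Pdcd1lg2 and Cd40.

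Btnl4 was nearly silent in control macrophages. It had 19, 106 and 53 counts in the Pex5-deficient libraries, against 2, 1 and 0 in the control libraries, which is 1.49, 4.45 and 3.0 CPM against 0.156, 0.0573 and 0 CPM. Every Pex5-deficient library was above every control library, and replicate 1 was the lowest of its group. The summed counts of 178 and 3 gave a ratio of scaled levels of 49.3, with an exact 95% counting interval from 16.6 to 241. The interval covers counting error only, and the fitted log2 fold change of 5.36 ± 0.72 (SE, n = 3 per group) leans on the prior count for so few control reads. Without control replicate 1, which held 2 of the 3 control counts, the fitted value was 6.32.

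Btnl6 was low but measurable in control macrophages. It had 29, 122 and 88 counts in the Pex5-deficient libraries, against 10, 11 and 6 in the control libraries, or 2.27, 5.13 and 4.97 CPM against 0.782, 0.630 and 0.405 CPM. Again no libraries overlapped, and again Pex5-deficient replicate 1 was lowest. The means were 4.12 ± 1.61 CPM in Pex5-deficient and 0.606 ± 0.190 CPM in control macrophages (SD, n = 3 each), a log2 fold change of 2.78 ± 0.41 (SE). Its call by edgeR ended without control replicate 1, where the log2 fold change was 2.98. Leaving out Pex5-deficient replicate 2, which stood apart, the log2 fold changes were 4.94 for Btnl4 and 2.61 for Btnl6. There were 0.655, 0.869 and 0.602 reads of Btnl4 per read of Btnl6 in the Pex5-deficient libraries, against 0.2, 0.0909 and 0 in the control libraries. The control ratios rest on 3 reads of Btnl4.

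The rest of the butyrophilin family was largely listed at 0, as were 10388 of the 25664 genes of the table, and how far such zeros come from the counting was not tested. Btn2a2, on chromosome 13 (23477676 to 23488857), was listed at 0 in all 6 libraries, where 3 counts would be 0.126 to 0.235 CPM. Btnl1, the partner of Btnl4 and Btnl6 in mouse gut epithelium, and Btnl2, an inhibitor of T cells, were among the 15 of 18 other family members in the table that were also listed at 0. Btnl9 had 2 counts over the Pex5-deficient libraries and 0 over the control libraries, and Ermap, the erythroid member, had 11 and 8. Skint3, of a family known from skin and thymus of the mouse, was the only other member tested, with 13 ± 3.79 CPM in Pex5-deficient and 20.4 ± 7.93 CPM in control macrophages (log2 fold change -0.64 ± 0.29, adjusted p = 0.270).

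The genes whose levels over the 6 libraries were most like those of Btnl4 were Prickle2, which encodes a planar polarity protein (Pearson r = 0.998 on log2 CPM), Cfap36 (0.996) and Btnl6 itself (0.993). For Btnl6 they were Btnl4 (0.993), Prickle2 (0.990) and Fam221a (0.988). The 6 libraries share the 2 genotypes, and with 11011 genes to search such values describe these libraries only. Prickle2 had 13.6, 17.4 and 15.9 CPM in Pex5-deficient libraries, against 7.59, 6.93 and 6.21 CPM in control libraries (log2 fold change 1.18 ± 0.16). The log2 fold changes of Cfap36 and Fam221a were 0.56 ± 0.15 and 0.80 ± 0.28. As these genes were picked for following Btnl4 or Btnl6, their differences between the genotypes are a description, with no test.

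Btnl4 and Btnl6 lie in the mouse major histocompatibility complex, between the class II genes and Notch4, and 56 other genes of the table start within 500 kb of one of them. Of these 41 were tested: 0 rose and 2 fell (4.88%, against 3.25% of all genes tested). Their median log2 fold change was 0.03, against 0 for all genes tested. From 2 calls nothing is read about the locus. The 2 that fell were H2-DMa and H2-DMb2, subunits of the molecule that loads peptides onto class II. H2-DMa had 322 ± 30.7 CPM in Pex5-deficient and 705 ± 45.2 CPM in control macrophages (log2 fold change -1.13 ± 0.14, adjusted p = 0.00703), and H2-DMb2 had 11.6 ± 2.41 and 26.7 ± 2.54 CPM (-1.22 ± 0.17, adjusted p = 0.00985). H2-DMb2 lost its call without control replicate 1 (adjusted p = 0.0541), and it may share reads with its close paralog H2-DMb1. The class II chains at lower coordinates, H2-Ab1 (-1.74 ± 0.49, adjusted p = 0.0986), H2-Aa (-2.00 ± 0.56, 0.0984) and H2-Eb1 (-1.81 ± 0.58, 0.139), did not pass. The groups overlapped for each of them. In Pex5-deficient libraries they had 48.8 ± 9.93, 34.9 ± 11.2 and 12.2 ± 2.8 CPM in that order. In control libraries they had 163 ± 119, 139 ± 109 and 42.9 ± 36.3 CPM. They passed without control replicate 2 (0.0169, 0.0177 and 0.0262 in that order) and with scaling by library size alone. On the other side Notch4, 87.0 kb from the start of Btnl4, averaged 0.108 CPM in Pex5-deficient and 0.177 CPM in control libraries, and Gpsm3, at 112.5 kb, had a log2 fold change of -0.37 ± 0.10 (adjusted p = 0.0942). Further genes of the window passed only under other settings. C2 (2.21 ± 0.62, adjusted p = 0.0968) passed by DESeq2 (0.00515), library size alone (0.000582) and without the filter (0.0378). H2-Ke6 (0.54 ± 0.14, 0.0727) passed by DESeq2 (0.0272) and without the filter (0.0472), and Agpat1 (0.42 ± 0.11, 0.0863) by DESeq2 (0.05). H2-K1 (-1.35 ± 0.41, 0.123) passed by DESeq2 (0.00361), library size alone (2.6e-08) and without Pex5-deficient replicate 2 (0.0221).

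**Figure D2:**
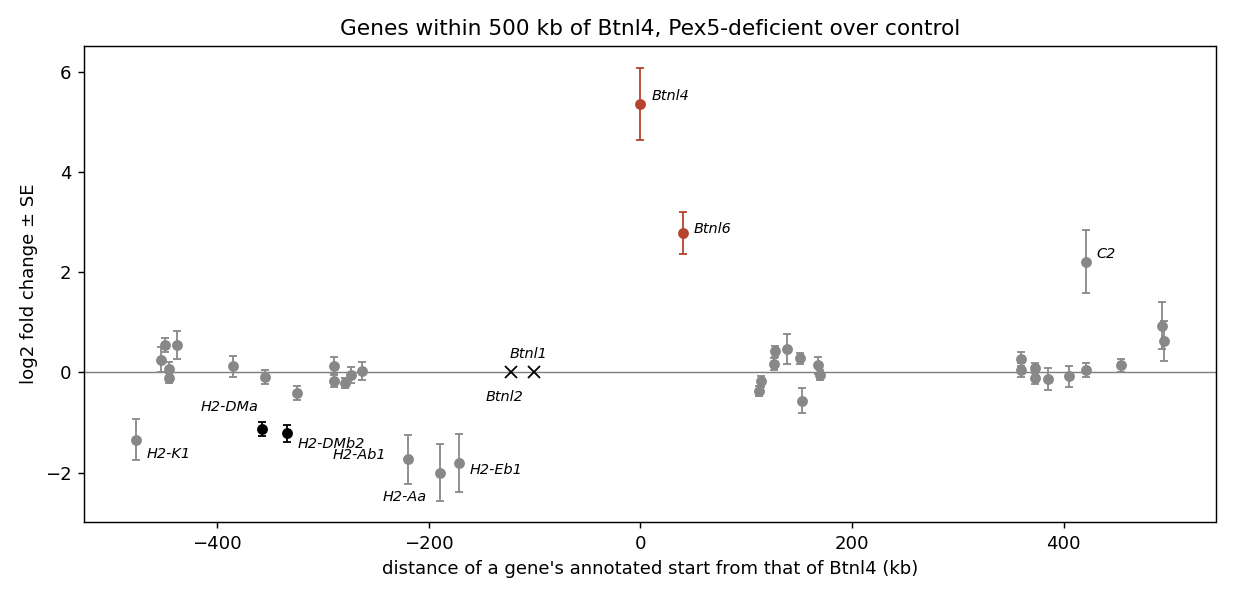
Log2 fold change ± SE, Pex5-deficient over control, of the tested genes that start within 500 kb of Btnl4, by distance from the annotated start of Btnl4 (negative: lower coordinates). Red marks Btnl4 and Btnl6, black the genes with an adjusted p under 0.05, grey the others, and crosses Btnl1 and Btnl2, which had 0 counts and no fold change. Only Btnl4, Btnl6 and, uncalled, C2 (2.21) lie above 1.

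For the ligands of CD28 and CTLA-4 the libraries of the genotypes overlapped. Cd80, on chromosome 16 (38455561 to 38496335), had 2.58, 2.35 and 2.03 CPM in Pex5-deficient libraries, against 2.66, 2.58 and 2.97 CPM in control libraries. Its highest Pex5-deficient library matched its lowest control library, and the log2 fold change was -0.24 ± 0.23. Cd86, on the same chromosome (36603869 to 36666081) and 1789.5 kb away, had 6.10, 5.21 and 8.08 CPM against 14.9, 3.89 and 7.09 CPM. Control replicate 1 was the highest of the 6 libraries and control replicate 2 the lowest, and the Pex5-deficient libraries lay between them. Its log2 fold change of -0.40 ± 0.43 had the opposite sign, 0.24, without control replicate 1. Reads of Cd86 per read of Cd80 numbered 2.36, 2.21 and 3.97 in Pex5-deficient libraries and 5.59, 1.51 and 2.39 in control libraries.

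Of the ligands of PD-1, which lie side by side, Cd274 was higher in every Pex5-deficient library, while the libraries overlapped for Pdcd1lg2. Cd274 (chr19:29367455-29388095) and Pdcd1lg2 (chr19:29410919-29471161) start 43.5 kb apart on the plus strand. Cd274 was by far the most abundant member, with 81.5, 109 and 87.1 CPM in Pex5-deficient libraries, against 70.7, 74.7 and 67.0 CPM in control libraries. All Pex5-deficient libraries were above all control libraries, the highest being replicate 2, and the log2 fold change was 0.39 ± 0.13, a ratio of 1.31. Without replicate 2 the value was 0.26, and scaling by library size alone gave 0.59. Pdcd1lg2 had 2.27, 4.45 and 3.96 CPM in Pex5-deficient libraries, against 4.93, 4.92 and 3.38 CPM in control libraries, with overlapping groups and a log2 fold change of -0.29 ± 0.29. There were 35.9, 24.5 and 22.0 reads of Cd274 per read of Pdcd1lg2 in Pex5-deficient libraries and 14.3, 15.2 and 19.9 in control libraries, so every Pex5-deficient library had the larger ratio. Plgrkt, a plasminogen receptor gene that starts 0.1 kb from Cd274 on the opposite strand, had 113 ± 16.9 CPM in Pex5-deficient and 109 ± 3.09 CPM in control macrophages (log2 fold change 0.04 ± 0.13, adjusted p = 0.899). The sources used here do not give the strand setting of the counting, and Cd274 and Pdcd1lg2 each overlap an antisense gene of the annotation, whose reads could not be told apart without strand.

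Icosl, the ligand of ICOS, was the member that was lower in every Pex5-deficient library. On chromosome 10 (78069302 to 78083913), it had 14.3, 15.4 and 12.1 CPM in Pex5-deficient libraries, against 21.4, 17.6 and 20.8 CPM in control libraries. The means were 13.9 ± 1.68 and 19.9 ± 2.04 CPM (SD, n = 3 each), the groups did not overlap, and the log2 fold change was -0.51 ± 0.14, or a ratio of 0.701. Scaling by library size alone gave -0.33, and the value was -0.60 to -0.42 when any 1 library was left out.

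Cd40, on chromosome 2 (165055627 to 165072948), was at the edge of detection. It had 5, 5 and 0 counts in Pex5-deficient libraries, against 0, 1 and 2 in control libraries, and the summed 10 and 3 counts gave a ratio of 2.77 with an exact 95% counting interval from 0.713 to 15.6. A difference was not detectable at this depth.

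**Figure D3:**
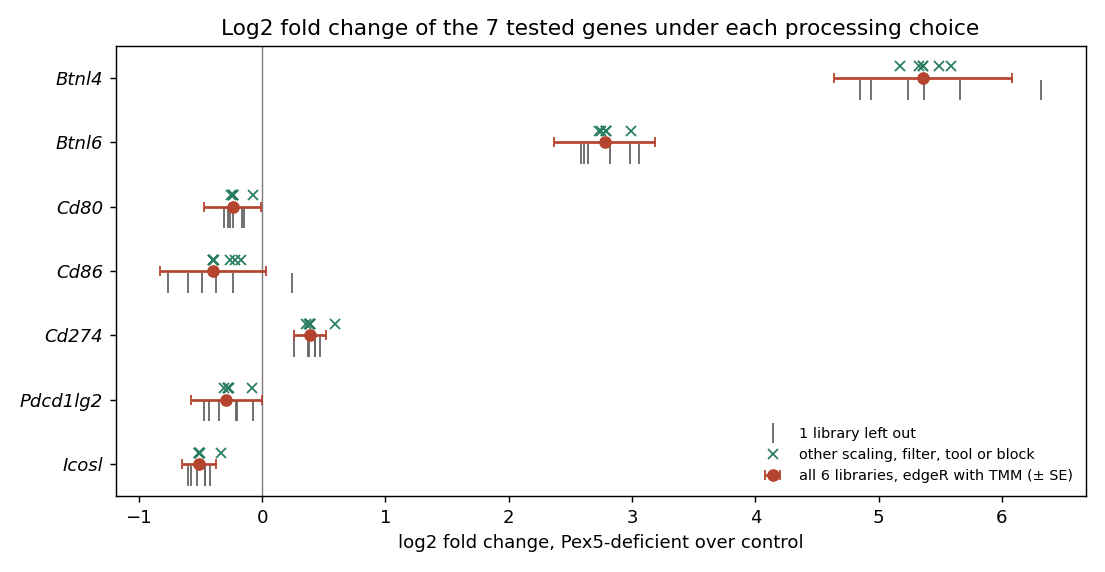
Log2 fold change, Pex5-deficient over control, of the 7 tested members with all 6 libraries (red, ± SE), with 1 library left out (ticks) and under other scalings, filters, tools or the replicate block (crosses). Btnl4 stays between 4.85 and 6.32 and Btnl6 between 2.59 and 3.06, and Cd86 crosses 0 once.

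Levels per length put Cd274 far above the rest in both genotypes. In CPM per kb of exon, Cd274 had 25.5 ± 4.01 in Pex5-deficient and 19.6 ± 1.06 in control macrophages (SD, n = 3 each), above 85.8% and 82.8% of the genes tested. Reads of Cd274 were 71.8% to 74.6% of all reads of the 9 members in Pex5-deficient and 61.2% to 71.5% in control libraries. Icosl came next with 3.01 ± 0.363 CPM per kb in Pex5-deficient and 4.31 ± 0.441 in control macrophages. The order then differed between the genotypes. In Pex5-deficient macrophages Btnl6 came after Icosl with 2.35 ± 0.918 CPM per kb, followed by Pdcd1lg2 (1.82 ± 0.584), Cd86 (1.77 ± 0.402), Btnl4 (1.25 ± 0.623) and Cd80 (0.627 ± 0.0741), and from Icosl to Cd80 no neighbours in this order stood apart over the 3 libraries. In control macrophages Cd86 (2.35 ± 1.54) and Pdcd1lg2 (2.25 ± 0.457) came after Icosl, and the libraries of Cd86 overlapped those of both neighbours. Below them Cd80 (0.739 ± 0.0561), Btnl6 (0.346 ± 0.108) and Btnl4 (0.0299 ± 0.0332) each stood apart from the gene above. Cd40 had 0.0588 ± 0.0575 CPM per kb in Pex5-deficient and 0.0188 ± 0.0199 in control macrophages, not apart from Btnl4 in control, and Btn2a2 was last at 0. With the length of the longest transcript in place of all exons, Cd86 came before Btnl6 in Pex5-deficient macrophages and Icosl stood apart from the gene below it in both groups.

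**Figure D4:**
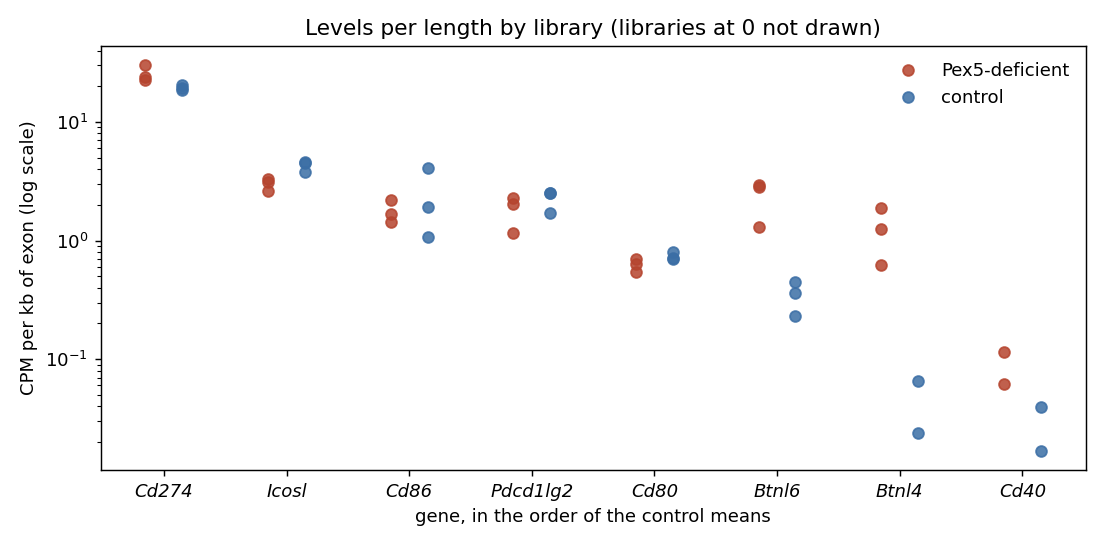
CPM per kb of exon on a log scale for 8 members in each library, Pex5-deficient (red) left of control (blue), ordered by the control means. Cd274 lies between 18.5 and 30.1, and Btnl6 and Btnl4 stand higher in the order in Pex5-deficient than in control macrophages. Libraries at 0 and Btn2a2 are not drawn.

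Other genes of the same exchange with T cells were read from lists chosen with earlier results of these data known. Counts of calls per list are thus a description, beside 3.25% called over all genes tested. Among these lists only that of other surface proteins of the T cell contact held several calls. Of its 14 tested genes 4 rose and 1 fell, with a median log2 fold change of -0.04. Ceacam1, an inhibitory adhesion molecule, had 15.2 ± 5.47 CPM in Pex5-deficient and 2.74 ± 0.763 CPM in control macrophages (2.47 ± 0.33, adjusted p = 0.00868). Cd200, which restrains myeloid cells through its receptor, had 111 ± 33.8 and 36.9 ± 8.0 CPM (1.58 ± 0.23, adjusted p = 0.0117). Alcam, the ligand of CD6 (1.26 ± 0.28, adjusted p = 0.0478), and Ly9, a receptor of the SLAM family (0.57 ± 0.12, adjusted p = 0.0405), also rose. Itgal, a chain of the integrin LFA-1, fell to 174 ± 12.8 CPM in Pex5-deficient macrophages, against 254 ± 17.4 CPM in control (-0.55 ± 0.12, adjusted p = 0.0427). Ceacam1 kept its call whichever library was left out, and Cd200 lost it without control replicate 1 (adjusted p = 0.0672). Alcam (0.0545 to 0.159) and Itgal (0.0944 to 0.169) lost theirs when any library but Pex5-deficient replicate 2 was left out, and Ly9 whichever was left out (0.0546 to 0.148). Ceacam1 has a close paralog, Ceacam2, with which it may share reads.

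In the TNF family of costimulatory ligands 1 of 3 tested genes fell and 0 rose (median 0.43), and 3 of the 11, Tnfsf4, Cd70 and Fasl, were listed at 0. Tnfsf13b, the B cell survival factor BAFF, had 0.805 ± 0.365 CPM in Pex5-deficient and 5.6 ± 2.14 CPM in control macrophages (log2 fold change -2.80 ± 0.42, adjusted p = 0.0128, and 0.0566 without control replicate 1). Its relative Tnfsf13, which encodes APRIL, had 429 ± 82.7 and 297 ± 13.3 CPM (0.53 ± 0.16) and was not called (adjusted p = 0.116), but passed without Pex5-deficient replicate 2 (0.0447). Neither of the 2 tested genes of the rest of the B7 family was called (median 0.22): Vsir, which encodes the inhibitory ligand VISTA, had 181 ± 8.90 and 175 ± 30.7 CPM (0.05 ± 0.14, adjusted p = 0.897), and Cd276, which encodes B7-H3, had 6.37 ± 2.12 and 4.82 ± 1.87 CPM (0.38 ± 0.33, adjusted p = 0.577).

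Signalling below CD40 and above PD-L1 held no calls. Of all genes tested 3.25% were called and 18.9% had an unadjusted p under 0.05. In lists this short 0 calls is near that share, so nothing is read from it. Of 15 tested genes of CD40 signalling 0 were called by edgeR and 0 by DESeq2, 1 had an unadjusted p under 0.05, and the median was -0.09. Chuk, a kinase of the NF-kB pathway (0.33 ± 0.14, adjusted p = 0.262), and Tnfaip3, its feedback inhibitor (-0.40 ± 0.19, adjusted p = 0.291), had the smallest p. Of 14 tested genes of PD-L1 control 0 were called by edgeR and 0 by DESeq2, and 5 had an unadjusted p under 0.05. Their log2 fold changes were negative for 10 and positive for 4, with a median of -0.16. Nlrc5 and Ciita, the transactivators of class I and class II MHC genes, had -1.11 ± 0.29 (adjusted p = 0.0815) and -1.47 ± 0.53 (adjusted p = 0.181), while Irf1, which carries the interferon-gamma signal to Cd274, had -0.14 ± 0.11 (adjusted p = 0.556) and was named after its value was seen. Without Pex5-deficient replicate 2 Hip1r, which sends PD-L1 to lysosomes in human cells, passed (-0.83, adjusted p = 0.0487). A list of 12 partners of the members and other receptors of costimulation held 6 genes listed at 0, the member partners Cd28, Ctla4, Pdcd1 and Cd40lg and the receptors Tigit and Cd226, whose ligands are not members. Icos, Btla, Tnfrsf4 and Tnfrsf9 averaged at most 0.465 CPM in either group. The 2 tested had more: Rgmb, a partner of PD-L2, had 16.1 ± 2.61 CPM in Pex5-deficient and 10.4 ± 1.02 CPM in control macrophages, and Tnfrsf18, which encodes GITR and is no receptor of a member, averaged 6.84 and 10.3 CPM. Rgmb (0.63 ± 0.16, adjusted p = 0.0779) and Tnfrsf18 (-0.58 ± 0.26, adjusted p = 0.269) were not called by edgeR, and 1, Rgmb, passed by DESeq2 (0.0244). In this list 1 gene had an unadjusted p under 0.05.

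**Figure D5:**
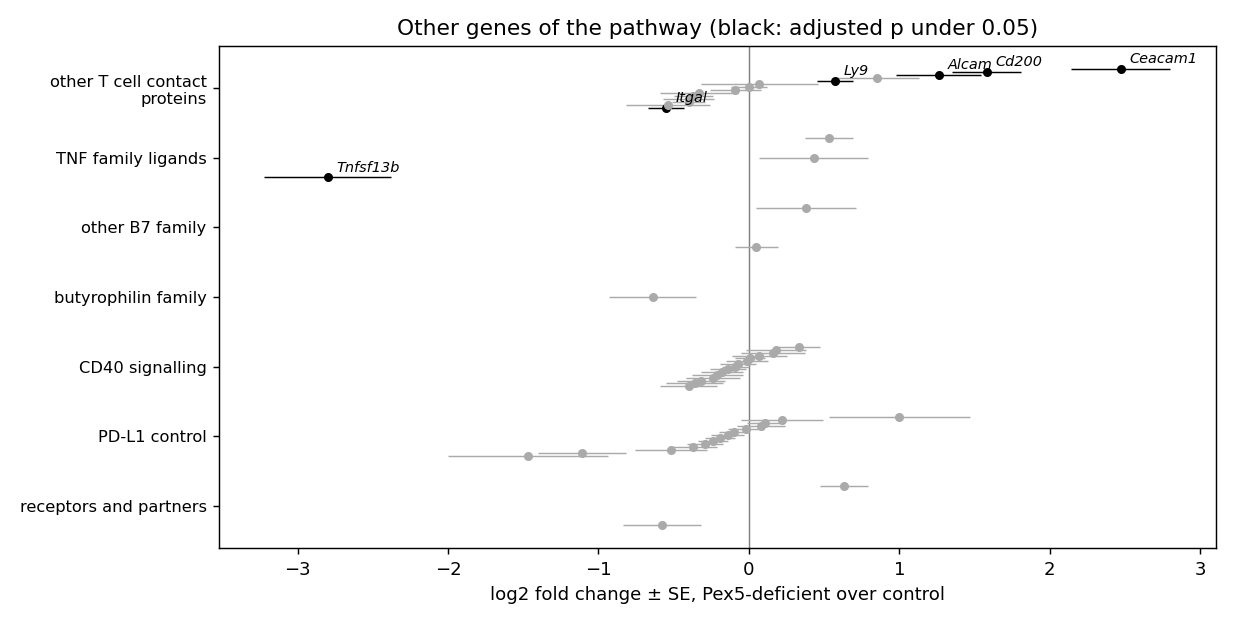
Log2 fold change ± SE, Pex5-deficient over control, of the tested genes in 7 lists of the pathway, the members left out. Black marks an adjusted p under 0.05 by edgeR, with the gene's name: 4 genes are higher and 2 lower, and the lists of CD40 signalling and PD-L1 control hold none.

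Around all 9 members together 113 tested genes start within 500 kb, of which 4 rose and 5 fell (7.96% called, against 3.25% of all genes tested, with a median log2 fold change of 0.05). Besides H2-DMa and H2-DMb2 these were, near Cd80, Cox17, a copper chaperone (0.53 ± 0.09), and Gm21987, a predicted gene that starts within 0.1 kb of it and whose reads are uncertain (0.53 ± 0.09). Near Icosl it was 1810043G02Rik (0.75 ± 0.11), and near Cd274 it was Ermp1, a metallopeptidase of the endoplasmic reticulum (-0.59 ± 0.11). Near Cd40 they were Neurl2 (1.0 ± 0.22), Pltp, a phospholipid transfer protein (-0.69 ± 0.13), and Wfdc10, a small secreted protein (-3.31 ± 0.38). H2-DMa and Wfdc10 kept their calls whichever library was left out. The call of 1810043G02Rik ended without Pex5-deficient replicate 1 or control replicate 1 or 2 (adjusted p = 0.0511 to 0.0605), and that of Ermp1 without Pex5-deficient replicate 1 or 3 or control replicate 1 or 2 (0.0706 to 0.121). Cox17 (0.0544 to 0.111), Gm21987 (0.0531 to 0.111) and Pltp (0.0511 to 0.129) lost theirs when any library but Pex5-deficient replicate 2 was left out, and Neurl2 whichever was left out (0.0620 to 0.140).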

How the data were processed

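RNA was sequenced from 6 libraries of sorted alveolar macrophages, 3 per genotype, placed in groups by their titles. The deposited values are whole-number read counts per gene symbol, 1 column per library, as the authors deposited them. Per the labels' protocols the kit was a stranded SMART-Seq kit and reads were single-end of 100 bp. STAR, featureCounts, DESeq2 1.40.1 and R 4.3.2 are named in the submitters' processing notes, with the builds mm10 and GRCm38.p5, while the sources used here do not give the annotation or strand setting.

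Genes were kept by edgeR's filterByExpr (minimum count 10, minimum total 15), which left 11011. Levels are CPM on TMM-scaled library sizes, as mean ± SD. The genotypes were compared over the whole table with edgeR 4.0.16 (glmQLFit, glmQLFTest; R 4.3.3), as a two-sided test with Benjamini-Hochberg adjusted p and a threshold of 0.05. Fold changes put Pex5-deficient over control, and SE comes from the F statistic. DESeq2 1.42.0 and limma-voom 3.58.1 were alternatives. Library totals, detected genes and the share of the 50 most abundant genes were compared by an exact permutation test, two-sided (p = 0.9, 0.7 and 0.7, smallest possible 0.1). Coordinates and lengths are from GENCODE mouse release 21 (GRCm38), and sequence windows from RefSeq (GRCm38.p6), which held 7 of the 9 members. No molecular identifiers are named, so intervals cover counting error only. The edgeR step was tested on simulated counts.

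Members, 14 gene lists and motifs were chosen with earlier results of these data known. The genes named were the members, called genes of each list or else the 2 with the smallest p, called genes within 500 kb of a member, and the 3 genes most like each member that differed by at least 1 on the log2 scale. Skint3, Notch4, Gpsm3, Plgrkt, the class II chains, Tnfsf13, Irf1, Hip1r and genes at 0 were named beside these after their values were seen. So were C2, H2-Ke6, Agpat1, H2-K1, Mmp8 and Csf3r. Some genes of the lists are not reported here, although the counts and sums of their lists include them. Protein sequences were not used here.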

Additional observations from a re-analysis of the deposited data

How the results depend on the processing

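Btnl4 and Btnl6 were higher in Pex5-deficient macrophages under every alternative that tested them, with log2 fold changes of 4.85 to 6.32 and 2.59 to 3.06. Leaving out 1 library at a time gave 76 to 523 called genes in place of 358, lowest without control replicate 1 and highest without Pex5-deficient replicate 2. It gave 1 to 2 called members in place of 2 and 2 to 11 genes near members in place of 9. In the lists it gave 1 to 5 of the other T cell contact proteins in place of 5, 0 to 2 TNF family ligands in place of 1 and 0 to 1 genes of PD-L1 control in place of 0. The log2 fold change of Cd86, -0.40 with all libraries, was 0.24 without control replicate 1 and -0.76 without control replicate 2. DESeq2 called 755 genes, 16 near members, 2 TNF family ligands and 1 gene of the receptor list. Library size alone called 2 TNF family ligands and 3 contact proteins. A mean of at least 5 CPM left out Btnl4 and Btnl6, so it called 0 members, and 0 TNF family ligands. The lists of CD40 signalling, the rest of the B7 family and the rest of the butyrophilin family held 0 calls under every alternative.

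With the replicate number as a block, 83 genes were called, with 1 member (Btnl4), 3 genes near members, 1 contact protein and 0 TNF family ligands. Deviations of same-numbered libraries from their group means had correlations of -0.214, -0.062 and -0.411. Those of differently numbered libraries had -0.188 to 0.397. With 3 libraries per group these values cannot decide whether the numbers pair the samples. The comparison of protein sequences was not run. The 10 and 3 reads of Cd40 and the 3 control reads of Btnl4 limit their folds, and why Btn2a2 is listed at 0 was not tested. The causes of these shifts were not tested.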
